A study of Homo sapiens with 8 samples.

Results

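The 77 nuclear genes named for proteins of the mitochondrial ribosome were followed in maps of single-stranded DNA from HEK293T cells, an established human embryonic kidney line, with and without vitamin C. They are the protein-coding genes of the RefSeq table on chromosomes 1 to 22 and X whose symbol is MRPL or MRPS, a number and at most 1 further letter, out of 19974 protein-coding genes on these chromosomes. A peak was assigned to a gene when at least 1 bp of it lay in the gene widened by 1 kb on each side. KAS-seq uses N3-kethoxal, which reacts with unpaired guanines in living cells, so DNA opened by transcribing polymerases or otherwise is enriched and called as peaks. Treated cells were kept in medium with 0.5 mM vitamin C for 10 min and control cells in medium without it, before N3-kethoxal was added to both at 5 mM for another 10 min. A peak list was used for each of the 2 vitamin C and the 2 control labelled libraries. The input libraries, 4 in number, were left aside and are not analysed here. Separate cultures are not stated for the replicates, so a p-value reflects the spread of these 4 libraries alone, and that spread may be technical.

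The mitochondrial ribosome is built from RNAs encoded in mitochondrial DNA and from proteins that are all encoded in the nucleus, made in the cytosol and imported. Its large subunit forms peptide bonds and its small subunit decodes the messenger RNA, and together they make the few membrane proteins of oxidative phosphorylation that mitochondrial DNA encodes. Some of its proteins have bacterial counterparts and others are found only in mitochondria. Of the 77 genes, 51 encode large-subunit proteins, MRPS18A and MRPS30 among them despite their symbols, and 26 encode small-subunit proteins. A protein of a bacterial ribosomal family is encoded by 47 genes and a mitochondria-specific protein by 30. The genes are short, with a median length of 8618 bp against 24170.5 bp for all protein-coding genes.

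The vitamin C libraries held 9816 and 9896 peaks and the control libraries 30351 and 24111. Solving each peak's fold and p for depth gave 1.22 and 0.871 labelled fragments per position with vitamin C, against 0.817 and 0.849 in the controls. By this estimate, which has no interval, neither vitamin C library was shallower than a control, although 0.871 lies close to 0.849. The value of 1.22, for vitamin C replicate 1, was obtained by dividing by its scale of 0.776. Depth of the input libraries was not estimated. A peak list records where a signal passed a threshold, and a weaker signal at a gene can end below it. Fewer cells with opened DNA at a gene and less opened DNA in each cell cannot be told apart in these bulk samples.

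The promoter windows of 4 members are shown because control peaks lay over their annotated starts: the 3 of highest control strength with a peak in every library, and MRPS10, the 1 member without a vitamin C peak that met the same criterion. Each window runs 5′ to 3′ on the gene's strand, from 250 bases before the start to 50 bases from it, in RefSeq sequence of GRCh38.p14. Capitals mark the bases under a peak of both controls. N3-kethoxal labels guanines on either strand, which are the letters g and c here.
MRPS21, chr1:150293611-150293910, plus strand: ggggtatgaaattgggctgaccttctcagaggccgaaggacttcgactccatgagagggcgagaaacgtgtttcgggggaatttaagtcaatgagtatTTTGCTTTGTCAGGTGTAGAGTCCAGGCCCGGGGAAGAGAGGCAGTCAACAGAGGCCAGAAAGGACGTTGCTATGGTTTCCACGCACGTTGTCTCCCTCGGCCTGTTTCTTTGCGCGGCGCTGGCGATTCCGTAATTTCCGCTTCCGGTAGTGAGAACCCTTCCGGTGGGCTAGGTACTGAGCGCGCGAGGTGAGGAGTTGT
MRPL1, chr4:77862580-77862879, plus strand: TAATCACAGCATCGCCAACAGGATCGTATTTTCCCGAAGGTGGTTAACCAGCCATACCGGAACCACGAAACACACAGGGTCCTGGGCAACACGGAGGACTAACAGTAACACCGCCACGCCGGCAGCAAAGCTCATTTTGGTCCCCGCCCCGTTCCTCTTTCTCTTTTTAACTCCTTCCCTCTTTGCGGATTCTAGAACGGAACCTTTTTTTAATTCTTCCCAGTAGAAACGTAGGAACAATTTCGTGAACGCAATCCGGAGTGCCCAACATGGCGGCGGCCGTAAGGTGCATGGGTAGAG
MRPL18, chr6:159789562-159789861, plus strand: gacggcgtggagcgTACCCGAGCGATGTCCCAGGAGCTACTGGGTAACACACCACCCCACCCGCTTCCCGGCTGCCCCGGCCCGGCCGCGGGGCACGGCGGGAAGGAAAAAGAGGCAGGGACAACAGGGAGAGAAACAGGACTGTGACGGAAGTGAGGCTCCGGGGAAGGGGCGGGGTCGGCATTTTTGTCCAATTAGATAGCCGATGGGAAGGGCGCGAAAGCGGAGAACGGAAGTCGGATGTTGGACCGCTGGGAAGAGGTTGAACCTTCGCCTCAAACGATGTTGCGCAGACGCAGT
MRPS10, chr6:42217812-42218111, minus strand: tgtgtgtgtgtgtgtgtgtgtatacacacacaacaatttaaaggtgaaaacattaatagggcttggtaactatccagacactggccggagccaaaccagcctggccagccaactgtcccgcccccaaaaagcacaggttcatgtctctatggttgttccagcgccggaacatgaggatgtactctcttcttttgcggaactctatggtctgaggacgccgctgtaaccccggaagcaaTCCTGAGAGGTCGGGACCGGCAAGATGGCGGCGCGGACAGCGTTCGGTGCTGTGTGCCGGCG
The vitamin C peaks covered 0 and 0 of the 300 bases at MRPS21, against 202 and 215 in the controls. At MRPL1 they covered 300 and 0 bases, against 300 and 300 in the controls, and at MRPL18 they covered 1 and 241 bases, against 286 and 300. At MRPS10 they covered 0 and 0 bases, against 62 and 104 in the controls. The MRPS21 and MRPS10 windows were thus free of peaks after vitamin C, although MRPS21 kept peaks elsewhere.

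Fewer mitochondrial ribosomal protein genes carried a peak after vitamin C, and those that did had less of their length under peaks. Members with a peak numbered 43 and 39 in the vitamin C libraries and 69 and 63 in the controls, a mean of 41 ± 2.83 against 66 ± 4.24 (SD, n = 2 each). Distinct peaks at members numbered 68 and 64 with vitamin C, against 192 and 156 in the controls, a log2 ratio of -1.40. Peaks covered 24636 and 24411 bp of the members with vitamin C, against 92687 and 74875 bp in the controls. The mean covered length was 24523.5 ± 159 bp with vitamin C and 83781 ± 12595 bp in the controls (SD, n = 2 each), a log2 ratio of -1.77. Both vitamin C libraries lay below both controls in each of these measures, by more than replicates differed. An exact two-sided permutation test gave p = 0.333 for each, and no smaller p can be reached with 2 libraries in each group.

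The members' loss ran close to that of the whole list. The log2 ratio of vitamin C over control was -1.47 for all peaks in the lists and -1.61 for the base pairs covered at all protein-coding genes. The members took 0.693% and 0.647% of the peaks of the vitamin C lists and 0.633% and 0.647% of the control lists (exact two-sided permutation p = 0.667). With all lists trimmed to the same length of 9816 peaks of lowest q, members with a peak averaged 40.5 with vitamin C and 43.5 in the controls, and their peaks differed by only -0.09 on the log2 scale. The covered length differed by -0.78 on the log2 scale at equal list length. That trimming leaves the control peaks of lowest q and nearly all vitamin C peaks. The covered length of all genes was not computed at that setting, so this value cannot be called particular to the members. The median peak at the members was 362.5 and 363 bp wide with vitamin C and 420 and 405.5 bp wide in the controls.

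**Figure D1:**
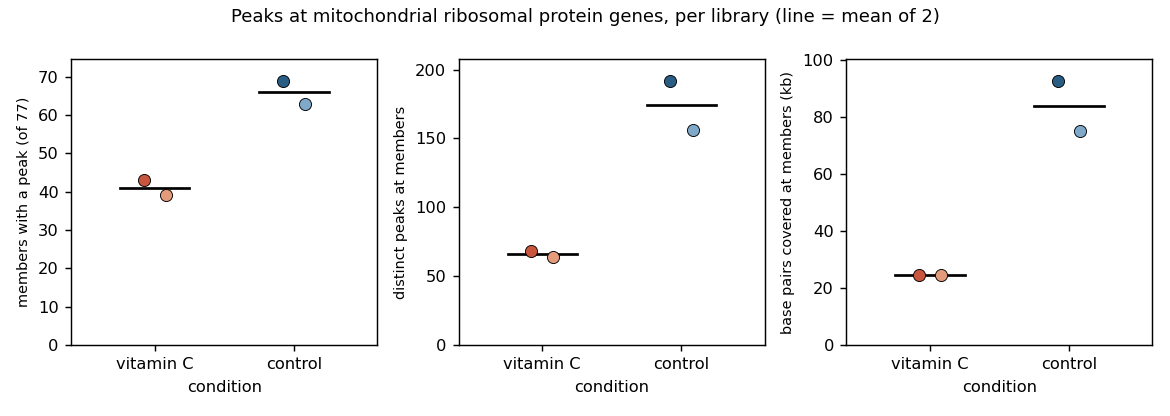
Members with a peak (left), distinct peaks at members (middle) and kilobases of member genes under peaks (right) in the 2 vitamin C and the 2 control libraries, with each point a library and the line the mean of 2. The vitamin C points, such as 43 and 39 members, lie below both controls, at 69 and 63 members, in each panel.

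A peak in both controls was present at 61 of the 77 members, or 79.2%, against 35.3% of all protein-coding genes. Of these 61 members, 31 also had one in each vitamin C library and are called kept, 15 had one in a single vitamin C library, and 15 had none and are called lost. Kept members were 50.8% of the 61, against 49.7% of all genes with a peak in both controls. Members with a peak in 1 vitamin C library were 24.6%, against 23.4% of such genes, and lost members were 24.6%, against 26.8%. The shares kept and lost were therefore near the background, while a peak in both controls was more common in the members than in the genome. That was not particular to them. The share was 75.6% in nuclear oxidative phosphorylation genes, 82.2% in the partner genes described below and 93.0% in cytosolic ribosomal protein genes. Members gained, with vitamin C peaks in both replicates but no control peak, numbered 0, and 0.025% of all genes were gained.

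Coverage was lower across nearly all members. In 54 of the 61 members with a peak in both controls, each vitamin C library covered fewer base pairs than each control, which is 88.5% of them against 90.3% of all such genes. Among the 31 kept members this held for 28, or 90.3%, against 88.4% of all kept genes. The median log2 ratio of covered length in kept members was -1.52, with a range of -2.30 to -0.13, and the median over all kept genes was -1.27. The mean covered length was lower with vitamin C in 70 members and higher in 2, MRPL36 and MRPL9. The kept members whose groups were not separated were MRPL28, MRPL24 and MRPL53, the first of which had 282 and 239 bp with vitamin C and 321 and 251 bp in the controls.

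**Figure D2:**
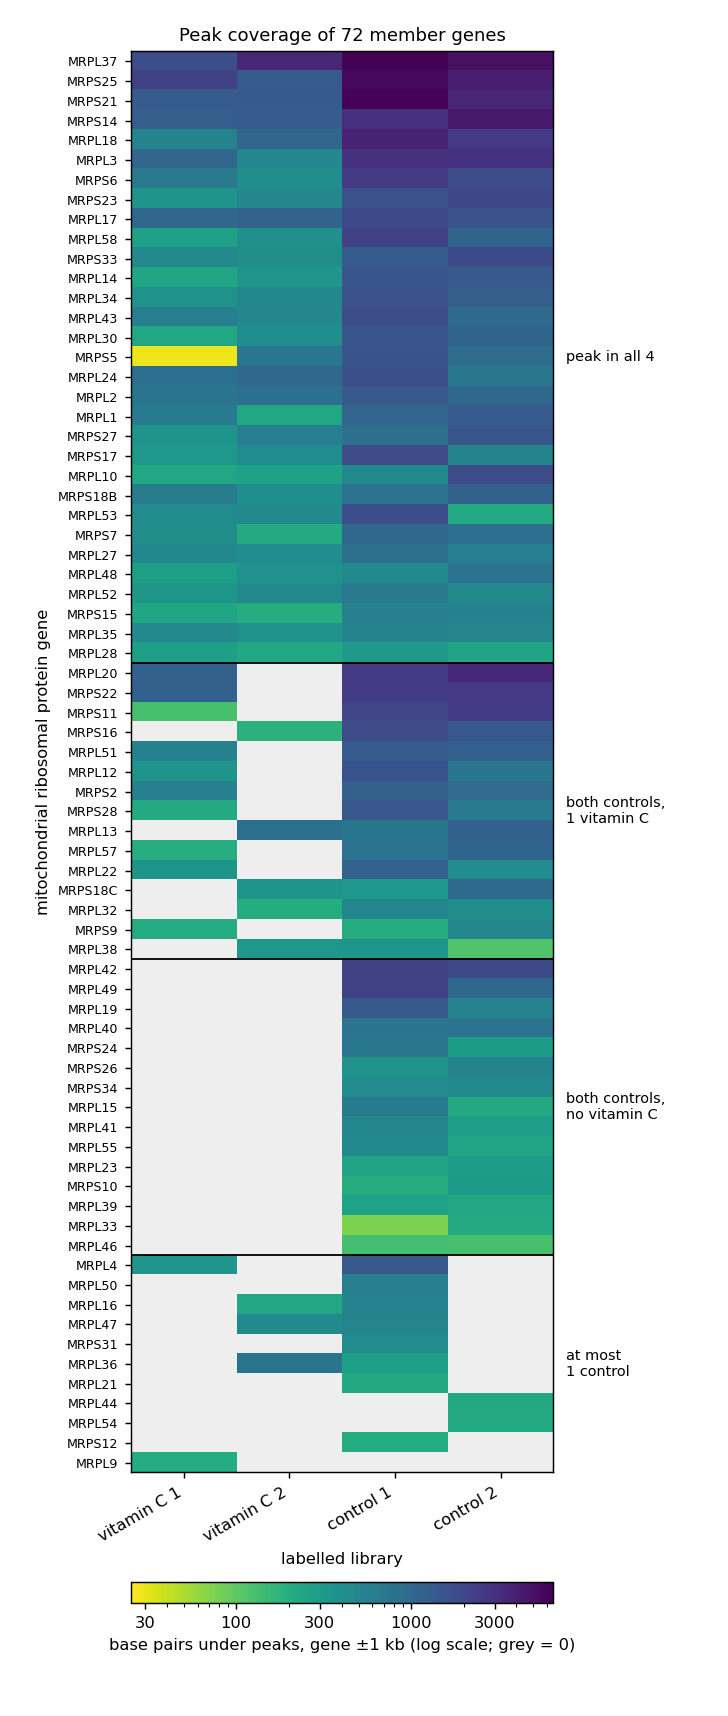
Base pairs under peaks in the gene widened by 1 kb (colour, log scale, grey for 0) for the 72 members with a peak in at least 1 library, in rows, by library, in columns. The blocks are, from the top, 31 members with a peak in all 4 libraries, 15 with both controls and 1 vitamin C library, 15 with both controls only, and 11 with at most 1 control.

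Among large-subunit genes, the kept members of highest control strength were MRPL2, MRPL1, MRPL34, MRPL17 and MRPL37. Control strength ranks the fold of a gene's best peak, the authors' own value, as a percentile within each control list and averages the 2 percentiles. MRPL1, whose bacterial counterpart forms the stalk beside the exit of spent tRNA, lies at chr4:77862830-77952785 on the plus strand and carried 1 strong peak at its start. That peak reached a fold of 16.2 and 8.10 in the vitamin C libraries and 17.4 and 15.1 in the controls, where a fold only ranks a peak within its list. Its summit lay 230 and 207 bp downstream of the start with vitamin C and 227 and 248 bp downstream in the controls. The peak was 669 and 233 bp wide with vitamin C, against 1052 and 1098 bp in the controls, so it stayed at the same place and was narrower. The second peak of MRPL1, of 217 bp, was called in control replicate 2 alone, 5819 bp into the gene. It brought the covered length in that library to 1315 bp.

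MRPL2, a core protein of the large subunit near the peptidyl transferase centre, lies at chr6:43054029-43059863. It had 749 and 858 bp covered with vitamin C and 1385 and 1017 bp in the controls, a log2 ratio of -0.58, and each of its vitamin C peaks is shared with CUL7 next to it. MRPL17, at chr11:6680385-6683340, had 1043 and 1106 bp with vitamin C and 1895 and 1580 bp in the controls, a log2 ratio of -0.69. MRPL34, at chr19:17292573-17306843, had 380 and 503 bp with vitamin C and 1611 and 1213 bp in the controls, a log2 ratio of -1.68. The vitamin C values of all these genes lay below both controls, and the drop was smaller at MRPL2 and MRPL17 than at MRPL34.

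MRPL37, a mitochondria-specific protein of the large subunit, lies at chr1:54200167-54225489 on the plus strand. It had 1702 and 3584 bp covered with vitamin C and 6226 and 5026 bp in the controls, a log2 ratio of -1.09. Its peaks, 4 and 6 with vitamin C and 5 and 6 in the controls, lay mostly in the last part of the gene and past its end, where SSBP3 lies. Peak number thus changed little at MRPL37 while covered length was lower, because control peaks there were long: the peak over the gene's end was 2052 and 2062 bp wide in the controls. Vitamin C peaks at the gene's end were 402 and 748 bp wide in replicate 1 and 337 and 1203 bp wide in replicate 2.

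Among small-subunit genes, the kept members of highest control strength were MRPS21, MRPS18B, MRPS17, MRPS25 and MRPS7. MRPS21 belongs to a bacterial small-subunit family and lies at chr1:150293861-150308979 on the plus strand. It had 1323 and 1347 bp covered with vitamin C and 6211 and 3543 bp in the controls, a log2 ratio of -1.87 and the largest mean difference in base pairs of any member. It carried 3 and 3 peaks with vitamin C and 10 and 9 in the controls. Its best peak lay past the annotated end of the 15119 bp gene, with the summit 15993 and 15994 bp from the start with vitamin C and 15998 and 16000 bp in the controls. The downstream peaks of MRPS21 were thus present in all libraries, while the control peaks over its start and most of those along its body had no counterpart after vitamin C.

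MRPS25, a mitochondria-specific small-subunit protein, lies at chr3:15042251-15065315 on the minus strand. It had 2181 and 1328 bp covered with vitamin C and 5777 and 4289 bp in the controls, a log2 ratio of -1.52, from 6 and 3 peaks against 11 and 10. The peak at its end falls in NR2C2 as well. MRPS14, at chr1:175012958-175023425, had 1218 and 1312 bp with vitamin C and 3008 and 4464 bp in the controls, a log2 ratio of -1.56. Together with MRPS21, MRPL37 and MRPL20, these were the members with the largest falls in mean covered length.

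MRPS7, whose bacterial counterpart organises the head of the small subunit, had 418 and 218 bp covered with vitamin C and 1022 and 862 bp in the controls, a log2 ratio of -1.57. MRPS17, whose bacterial counterpart is a primary rRNA-binding protein, had 336 and 438 bp with vitamin C and 1788 and 529 bp in the controls. The controls differed widely from each other at MRPS17, and both still lay above the vitamin C libraries. MRPS18B, one of the paralogues of a small-subunit protein family, had 611 and 429 bp with vitamin C and 791 and 1164 bp in the controls, each in a peak shared with PPP1R10 or ATAT1. MRPS18B lies in the major histocompatibility region of chromosome 6, for which the assembly holds alternate sequences, and peaks on such sequences were left out.

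**Figure D3:**
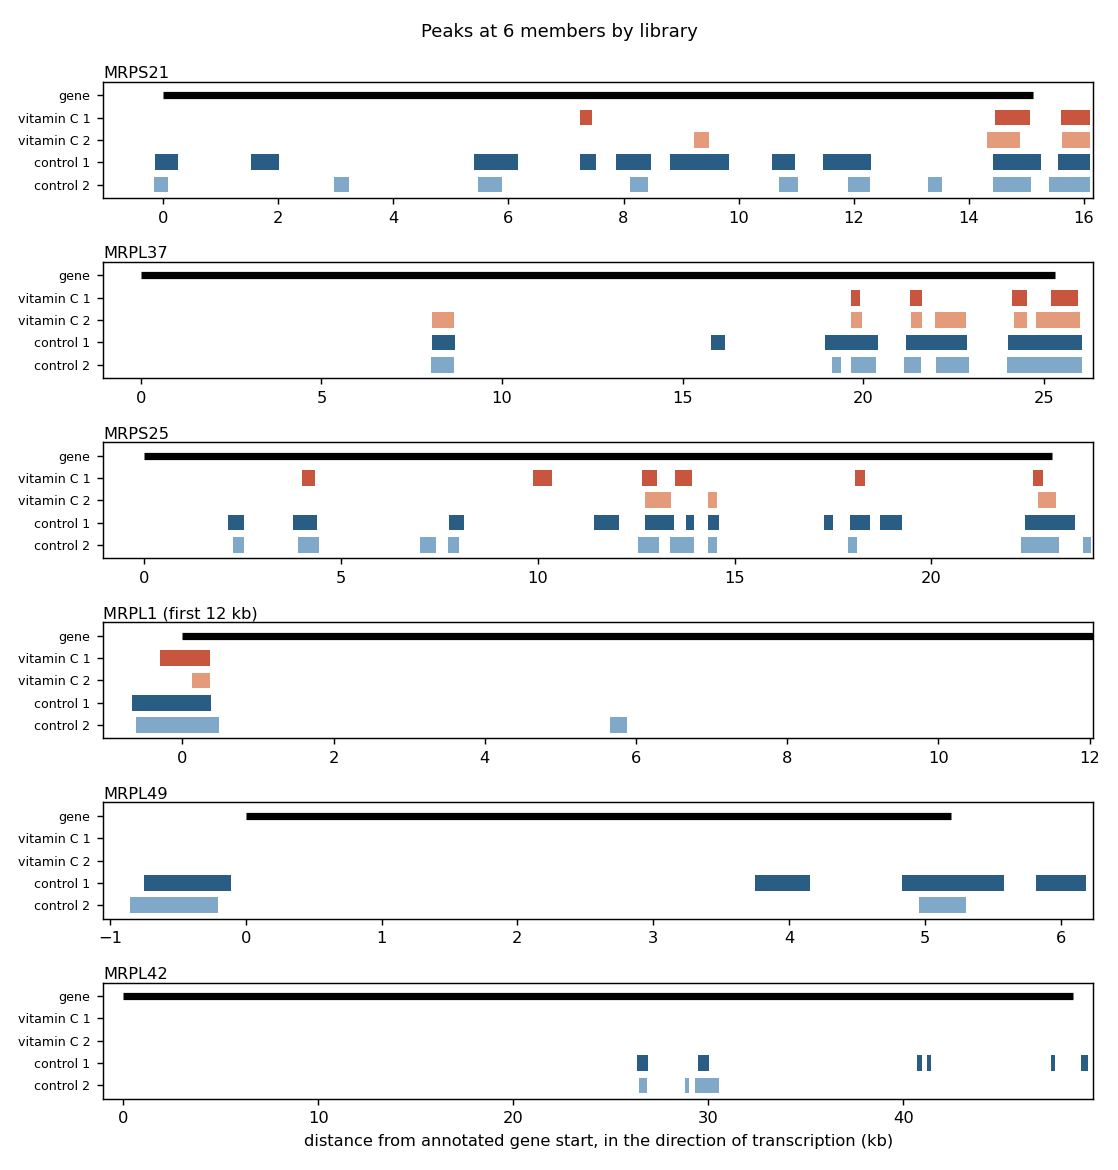
Peaks at 6 members (rows of bars) in the vitamin C libraries, above, and the control libraries, below, by distance from the annotated start in the direction of transcription (kb), with the gene as a black bar and the window ending 1 kb outside it. MRPS21 keeps its peaks past the end, MRPL37 keeps 4 and 6 peaks and MRPS25 6 and 3, MRPL1 keeps the peak at its start, and MRPL49 and MRPL42 have control peaks only.

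The lost members of highest control strength were MRPL23, MRPL49, MRPL42 and MRPS24. MRPL23, of the family that lines the exit of the peptide tunnel in bacteria, lies at chr11:1947332-2014944 and had 0 and 0 bp covered with vitamin C, against 255 and 302 bp in the controls. MRPL42, mitochondria-specific, at chr12:93467514-93516214, had 0 and 0 bp with vitamin C and 2216 and 1872 bp in the controls. Its 6 and 3 control peaks lay along the body and end of the gene and none was shared with another gene. MRPL49, mitochondria-specific, at chr11:65122183-65127371, had 0 and 0 bp with vitamin C and 2175 and 998 bp in the controls. Each MRPL49 control peak was shared, the one before its start with FAU, which encodes a cytosolic ribosomal protein fused to a ubiquitin-like protein, and the rest with SYVN1. MRPS24, at chr7:43866558-43869517, had 0 and 0 bp with vitamin C and 740 and 311 bp in the controls, and the gene that shares its peaks is the annotated read-through URGCP-MRPS24. These 4 genes were also the members lost at equal list length. Trimming takes away mainly weaker control peaks, so this overlap largely follows from their control strength and is no separate support.

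The other 11 lost members had control peaks of lower rank. MRPL39 had 0 and 0 bp with vitamin C and 258 and 232 bp in the controls, and MRPL41 had 0 and 0 bp against 493 and 289 bp. MRPL40 had 0 and 0 bp against 789 and 780 bp, and MRPL19 had 0 and 0 bp against 1378 and 558 bp. All of these are large-subunit genes. MRPL46 had 0 and 0 bp against 131 and 125 bp, and MRPS10 had 0 and 0 bp against 210 and 316 bp. The remaining 5, MRPL15, MRPL33, MRPL55, MRPS26 and MRPS34, had control values between 75 bp, at MRPL33, and 661 bp, at MRPL15. The narrowest peak was 210 and 217 bp wide in the control lists, and values below that belong to peaks that lie partly outside the window. Most of these 11 genes carried a single peak in each control. Within the lost members, 14 of 15 had a stretch under a peak in both controls, and 0 of the control peaks concerned were met by a vitamin C peak outside the window.

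In 11 of the 15 members with a peak in a single vitamin C library, both vitamin C libraries covered less than both controls. The member of highest control strength was MRPS28, with 215 and 0 bp with vitamin C and 1436 and 653 bp in the controls. MRPL51, mitochondria-specific, had 560 and 0 bp with vitamin C and 1283 and 1190 bp in the controls, and MRPL20, of a family that binds rRNA early in bacterial assembly, had 1179 and 0 bp against 2532 and 3469 bp. MRPL12, the counterpart of the bacterial stalk protein that recruits translation factors, had 368 and 0 bp with vitamin C and 1601 and 749 bp in the controls. MRPS22, mitochondria-specific, had 1158 and 0 bp with vitamin C and 2494 and 2568 bp in the controls. MRPS16 was the 1 gene of these 6 whose vitamin C peak lay in replicate 2, with 0 and 181 bp with vitamin C and 1838 and 1404 bp in the controls. The 4 exceptions in this group were MRPL38, MRPS18C, MRPL13 and MRPS9.

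No peak was found in any library at 5 members, MRPL11, MRPL45, MRPS18A, MRPS30 and MRPS35, against 52.5% of all protein-coding genes. A peak in 1 control only was found at 10 members, MRPL4, MRPL16, MRPL21, MRPL36, MRPL44, MRPL47, MRPL50, MRPL54, MRPS12 and MRPS31. Of these, MRPL36 had 0 and 762 bp with vitamin C and 279 and 0 bp in the controls, and 6 of the 10 had no vitamin C peak. MRPL9 was the only member with a vitamin C peak and no control peak, with 208 and 0 bp against 0 and 0 bp, and control peaks appeared once the gene was widened by 2 kb. Neither MRPL36 nor MRPL9 had a peak in each vitamin C replicate, so their higher means rest on 1 library each. The authors' treatment of reads that map to several places is not stated here, so the lack of a peak at a gene with near copies elsewhere says little about that gene.

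Retention was set beside the role of the protein. Of the large-subunit genes with a peak in both controls, 19 of 38 were kept, 8 had 1 vitamin C library and 11 were lost. Of the small-subunit genes, 12 of 23 were kept, 7 had 1 vitamin C library and 4 were lost. Genes of bacterial families were lost in 6 of 38 cases, or 15.8%, and mitochondria-specific genes in 9 of 23, or 39.1%, of which 7 encode large-subunit proteins. Their control peaks differed too, with a median control percentile of 70.8 in the mitochondria-specific genes and 80.6 in those of bacterial families, and the part of control strength in this difference was not tested. These splits are counts of genes, with no test, and at equal list length the lost members were only 4.

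Control strength and retention went together among the members. The median control percentile was 85.1 in kept members, 63.0 in members with 1 vitamin C library and 47.8 in lost members. Above the percentile of 80, 19 of 27 members were kept and 4 lost, that is 70.4% and 14.8%, against 82.8% and 4.93% of all genes in that band. Between 60 and 80, 10 of 18 members were kept and 3 lost, against 37.1% and 29.1% of all genes. Below 60, 2 of 16 were kept and 8 lost, against 18.1% and 53.1% of all genes. The members thus stood below the genome in the strongest band and above it in the middle band, with few genes in each. Strength was not matched within the strongest band, where the median percentile was 86.6 in the members and 91.2 in all genes. By length, 5 of 16 members under 5 kb were kept, 15 of 26 members of 5 to 15 kb, and 11 of 19 over 15 kb, that is 31.25%, 57.7% and 57.9%. Over all genes the shares kept ran the other way, at 59.5%, 55.6% and 46.5%. Control strength differed in the same way. Its median percentile under 5 kb was 71.3 in the members and 83.5 in all genes, and over 15 kb 82.7 and 70.9. The part of strength in the length pattern was not tested. Lost were 37.5% of the members under 5 kb, against 20.7% of all genes of that length.

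Other gene groups of the same biology gave a wide range. Cytosolic ribosomal protein genes, whose products build the ribosome of the cytosol, had a peak in both controls in 80 of 86 cases, and 78 of these were kept and 0 lost. Their median control percentile was 97.9, against 73.2 in the members, so these groups differed in the strength of their control peaks. Of the nuclear genes for oxidative phosphorylation subunits, whose products assemble with those that the mitochondrial ribosome makes, 62 of 82 had a peak in both controls. Of those 62, 37 were kept, 17 had 1 vitamin C library and 8 were lost, with a median control percentile of 79.5. Shares of kept genes were 50.8% in the members, 59.7% in the oxidative phosphorylation genes and 97.5% in the cytosolic ribosomal protein genes.

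**Figure D4:**
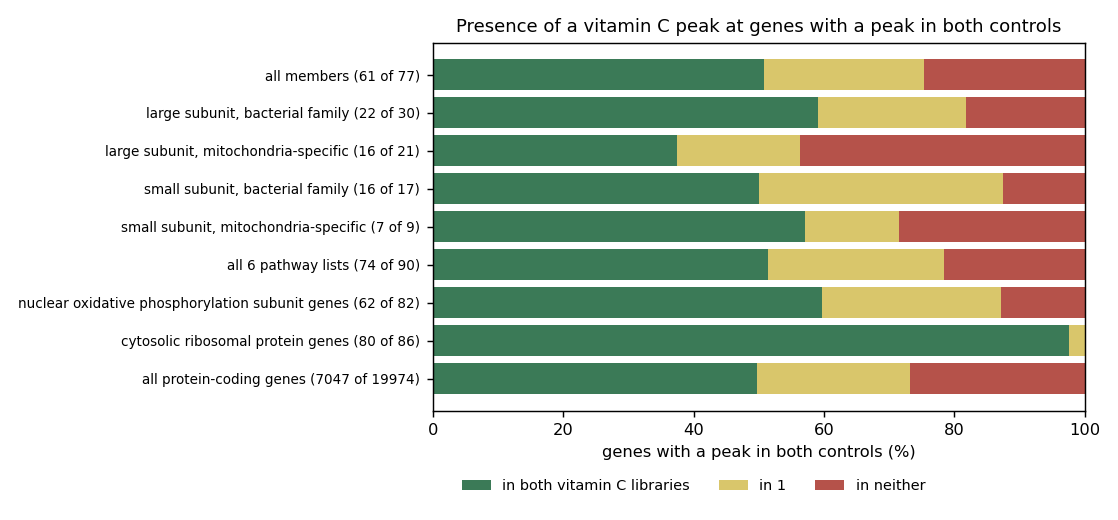
Genes with a peak in both controls (horizontal axis, percent) with a vitamin C peak in both replicates, in 1 or in neither, for the members, their subgroups and comparison groups, with the number of genes with a peak in both controls and the group size in brackets. The members, with 50.8% kept and 24.6% lost, sit near all protein-coding genes, at 49.7% and 26.8%, and below the cytosolic ribosomal protein genes, at 97.5% and 0%.

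Partners of the mitochondrial ribosome were examined in 6 lists of 90 genes in all, of which 74 had a peak in both controls, 38 were kept, 20 had 1 vitamin C library and 16 were lost. The share lost, 21.6%, is near the background of 26.8%. Ribosomal proteins with other symbols were kept in 2 of 4 cases and lost in 0. One of them, PTCD3, had 484 and 1313 bp covered with vitamin C and 4604 and 3685 bp in the controls. The other, GADD45GIP1, had 2470 and 1999 bp with vitamin C and 3914 and 3593 bp in the controls. Both lay below their controls in each vitamin C library.

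Assembly and rRNA modification genes were kept in 9 of 23 cases and lost in 6. DHX30, an RNA helicase of mitochondrial RNA granules, had 2485 and 2600 bp with vitamin C and 9581 and 6923 bp in the controls. C1QBP, a mitochondrial matrix protein, had 1730 and 1305 bp against 3954 and 3434 bp. MTG1, a GTPase of large-subunit assembly, had 0 and 0 bp with vitamin C and 2829 and 2211 bp in the controls, and METTL15, which methylates the small-subunit rRNA, had 0 and 0 bp against 260 and 559 bp. The loss at MTG1 was of a long control signal, while METTL15 had little to lose.

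Translation factors were kept in 8 of 13 cases and lost in 1. MTRF1L, a peptide release factor, had 941 and 979 bp with vitamin C and 3793 and 2550 bp in the controls, and MTIF2, an initiation factor, had 1197 and 2141 bp against 3522 and 3408 bp. MTFMT, which formylates the initiator tRNA, was the lost gene, with 0 and 0 bp against 603 and 629 bp. Genes of mitochondrial transcription and replication were kept in 7 of 8 cases and lost in 0. POLG, the catalytic subunit of the mitochondrial DNA polymerase, had 3035 and 2659 bp with vitamin C and 8273 and 6280 bp in the controls. Its accessory subunit POLG2 had 1567 and 1728 bp against 1895 and 1673 bp, and its groups overlapped.

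Genes that charge the mitochondrial tRNAs, the aminoacyl-tRNA synthetases and the amidotransferase subunits GATB, GATC and QRSL1, were kept in 9 of 17 cases and lost in 6. WARS2 had 1002 and 515 bp with vitamin C and 1452 and 1883 bp in the controls. TARS2 had 0 and 0 bp against 1170 and 954 bp, and YARS2 had 0 and 0 bp against 1476 and 1579 bp. Nuclear regulators of mitochondrial genes were kept in 3 of 9 cases and lost in 3. PPRC1, a coactivator of the PGC-1 family, had 3949 and 3013 bp with vitamin C and 6480 and 4065 bp in the controls. The transcription factor MYC had 220 and 724 bp against 1763 and 2815 bp. The transcription factor YY1 had 0 and 0 bp against 652 and 809 bp, and the coactivator PPARGC1B had 0 and 0 bp against 233 and 217 bp. The groups did not overlap at any regulator or synthetase gene whose values are given here.

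By position, coverage was highest near the start and past the end of the gene. The strand could be taken from the promoter table for 64 members, called oriented. The share of oriented members under a peak was highest near the start at 350 bp downstream in both vitamin C libraries, at 12.5% and 10.9%, and at 175 and 325 bp in the controls, at 29.7% and 18.8%. Around the end it was highest at 1150 and 1000 bp past the end with vitamin C, at 15.6% and 12.5%, and at 1300 and 925 bp in the controls, at 35.9% and 25%. Positions beyond 1 kb lie outside the window, and peaks there may belong to neighbouring genes. In control replicate 1 the share was still 29.7% at 2000 bp past the end. By summit, 37.7% and 37.0% of peaks with vitamin C and 49.4% and 52.9% in the controls lay in the gene body. At the start base itself, 6 and 4 of the 64 were covered with vitamin C and 16 and 11 in the controls. The profile was thus lower at both places after vitamin C, with its maxima at similar distances.

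**Figure D5:**
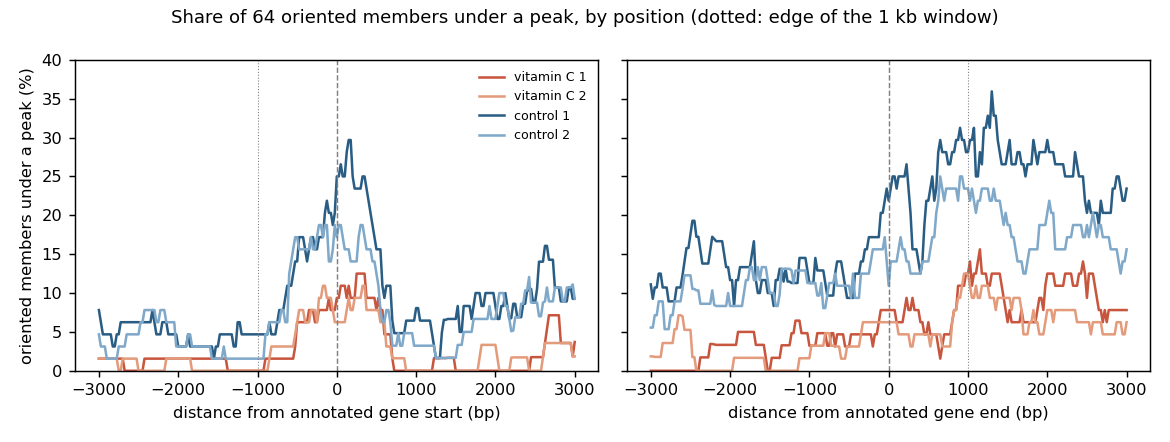
Share of the 64 oriented members whose sequence lies under a peak (vertical axis, percent) by distance in bp from the annotated start (left) and end (right), a line for each library. Vitamin C lines reach 12.5% and 10.9% near the start and 15.6% and 12.5% past the end, and control lines 29.7% and 18.8% near the start and 35.9% and 25% past the end.

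In the full lists, a larger part of the remaining coverage lay near the start. Within 1 kb of the start lay 32.9% and 35.1% of the covered base pairs with vitamin C, against 22.8% and 22.03% in the controls, a difference of 11.6 percentage points (exact two-sided permutation p = 0.333, the smallest possible). At equal list length the difference was 3.16 points and the groups overlapped, with a permutation p of 0.667. This share of base pairs was not computed over all genes, so the difference cannot be called particular to the members. The best peak of a member lay at the start in 43.2% and 53.1% of oriented members with a peak with vitamin C, which are 16 of 37 and 17 of 32. In the controls it did so in 40.4% and 34.6%, which are 23 of 57 and 18 of 52. Over all oriented genes the same shares were 29.7% and 28.3% with vitamin C and 28.4% and 28.2% in the controls. A summit within 1 kb of the start counts as at the start, which in the shortest genes takes in the end. The control summits of MRPL41, a gene of 677 bp, lay 726 and 721 bp from its start and were counted so. Members are shorter than genes in general, with medians of 8618 and 24170.5 bp, and the part of length in this contrast was not tested. Peaks whose summit lay in the gene body numbered 23 and 20 with vitamin C and 85 and 74 in the controls, and peaks at the start numbered 18 and 18 against 37 and 29.

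The remaining vitamin C peaks mostly lay where control peaks lay. Of the base pairs covered at members, 84.2% and 79.9% of those of vitamin C replicate 1 fell in control replicates 1 and 2, and 79.6% and 75.7% of those of vitamin C replicate 2 did. The shared part of all bases covered in either library was 0.320 between the vitamin C replicates and 0.417 between the control replicates, and 0.199 to 0.247 between conditions. Over both vitamin C libraries 37151 bp were covered, of which 6157 bp, or 16.6%, lay outside the control peaks. A stretch under a peak in all 4 libraries was present in 25 of the 31 kept members. Of the 49325 bp covered in both controls, 10925 bp, or 22.1%, were covered in both vitamin C libraries.

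Member genes often lie close to other genes, and a peak between them cannot be given to either. Peaks that also touched the window of another protein-coding gene made up 36.8% and 40.6% of member peaks with vitamin C and 29.2% and 28.8% in the controls. In 13 of the 61 members with a peak in both controls, all control peaks were shared in this way. Without shared peaks 17 members were kept and 13 lost. Taking peaks away cannot raise the number kept. The same counts over all genes were not computed without shared peaks, so the drop cannot be called particular to the members.

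The promoter sequences of the oriented members held motifs of factors known to act on genes for mitochondrial proteins. The letters were searched on both strands of the 300 base window, each motif alone. AAGATGGC, of the YY1 motif, was found in 19 of 64 members, or 29.7%, against 4.11% of 13792 coding genes and 2.89% of all 34961 promoters in the table. ACTTCCGG, of the ETS motif that GABPA binds, was found in 11 members, or 17.2%, against 6.45% of coding genes and 4.14% of all promoters. GCGCATGC, a part of the NRF1 palindrome, was found in 6 members, or 9.38%, against 4.45% of coding genes and 3.06% of all promoters. Among coding genes with a peak in both controls the shares were 7.38%, 11.3% and 6.59% for YY1, ETS and NRF1.

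YY1 letters occurred in each class of members listed here, and ETS and NRF1 letters in some of them. The classes were small, and differences between them were not tested. The YY1 letters were in 4 of 26 kept members, 5 of 13 with 1 vitamin C library, 4 of 12 lost members and 3 of 5 without any peak. ETS letters were in 4 of 26 kept, 4 of 13 with 1 vitamin C library and 1 of 12 lost members, and NRF1 letters in 3, 3 and 0 of the same classes. Neither ETS nor NRF1 letters were found in the 5 members without any peak. Of the sequences shown above, MRPS10 holds the YY1 letters, starting at base 260 of the window, under the peaks of both controls and in sequence without a vitamin C peak. The windows of MRPS21, MRPL1 and MRPL18 hold none of the 3. A match is only a match of letters and shows neither binding nor a role in the response. The median GC content of the windows was 60.7% in kept and 65.2% in lost members, and 62.7% in all coding genes.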

How the data were processed

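The submitters' processing notes list MACS2 2.2.7.1, Bowtie2 2.4.5, Trim Galore, bcl2fastq 2.19, deepTools and cutadapt, and hg38 as build. In which order and with which settings these ran is not given in the sources used. The deposited lists, 1 for each labelled library, give each peak's position and summit, the authors' score, their fold (a ratio over local background) and their −log10 p and −log10 q. Peaks on other sequences than chromosomes 1 to 22 and X, 4.23% to 5.06% of a list, were left out. The cell line field of the labels differs in its number between samples, and the titles, which all name HEK293T, were followed.

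Gene positions, strands (through the promoter table) and sequences came from RefSeq tables of GRCh38.p14. Read totals are not in the lists, so depth was solved from each peak's fold and p, with vitamin C replicate 1 scaled by 0.776. The depth is therefore an estimate and no interval was attached. Peaks of the same list did not overlap. Covered base pairs were summed gene by gene, so a peak shared between genes counts for each of them in the total over all genes. Values of the 4 libraries were tested by exact permutation, two-sided. Replicate numbers were not taken to pair the libraries. Named members were the 10 strongest kept and lost, the 6 strongest with 1 vitamin C library, all without a peak or with 1 control, and the 5 largest changes in covered length. In each list the 2 strongest kept and lost genes were named, except for a gene that is not reported here. The members and lists were chosen with earlier results of these data known. Alternatives were stricter q and fold thresholds, equal list length, other windows and overlaps, unshared peaks, each library left out and a replicate block. The calls were tested on simulated data. Python 3.11.15, numpy 2.4.6, pandas 2.3.3, scipy 1.17.1 and matplotlib 3.10.9 were used.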

Additional observations from a re-analysis of the deposited data

How the results depend on the processing

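With lists of equal length, 4 members were lost instead of 15, all among those 15, and 1 was gained, MRPS6, which had 5 peaks in each full control list. Over all genes 164 were gained at that length instead of 5. Pathway genes lost numbered 4 instead of 16, an alternative chosen after seeing the data. At that length 71.4% of the members peaked in both controls stayed kept and 11.4% were lost, against 76.0% and 7.42% of genes. The difference in members with a peak shrank to -3, in peaks to -0.09 and in base pairs to -0.78 (log2), and in the share of covered base pairs at the start to 3.16 points. Without shared peaks 17 members were kept instead of 31, and the share over all genes was not computed there. Widening genes by 2 kb turned MRPL9 round, to 1 library fewer with vitamin C (-1). Leaving out each library in turn, members with a peak differed by -28 to -22, peaks by -1.54 to -1.24 and covered base pairs by -1.92 to -1.61 (log2); 31 to 41 members were kept, 15 became 17 to 25 lost and 0 to 1 gained. The 25 came without vitamin C replicate 1 and the 1 gained without vitamin C replicate 2. The share of best peaks at the start differed by 5.76 to 15.6 points and that of covered base pairs by 10.4 to 12.7 points. With the replicate block the differences were -25 members, -1.39 and -1.76 (log2) for peaks and base pairs, and 10.7 and 11.6 points, and no call changed; replicate differences correlated with r of -0.09 between the conditions over 72 members. All other alternatives kept the direction of these results and left the counts of kept and lost members within 1.5 times. Which members were lost changed more than the count. At the stricter q threshold 12 were lost, 8 of them among the main 15, and at the fold threshold 16, of them 13. Among members peaked in both controls, the q threshold left 43.1% kept and 23.5% lost, against 48.3% and 27.8% of all such genes. The fold threshold left 42.4% and 27.1%, against 47.9% and 27.6%. At both thresholds the kept share lay below that of all genes, unlike at the main setting, and these differences were not tested. Of 387 values of named members under these settings, 329 were unchanged, 57 moved and 1 reversed. With 2 libraries a group no exact p could go below 0.333, and peaks under the calling threshold were not seen.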
